A study of Homo sapiens with 2 samples.

Results

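CHD4 binding was described across the very long protein-coding genes of 501Mel cells. These were the protein-coding genes of chromosomes 1 to 22 in GENCODE release 44, mapped to GRCh37, whose gene record was longer than 600 kb. Of 19229 protein-coding genes on these chromosomes, 208 passed the length, and 9 of them were left out by their symbol because the rule set these families aside (collagens, semaphorins, Robo, Slit, UNC5 and Eph proteins, potassium channels, DCC, SOX5, SOX6 and ZEB2). The remaining 199 genes covered 191 Mb, counting overlapping genes once, and held 2170 of the 59352 CHD4 peaks on chromosomes 1 to 22. The rule itself reads gene length and symbol only, although it was drawn up with earlier results of these data known.

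501Mel is an established human melanoma cell line, grown in culture with no treatment named in the labels. Fixed and sonicated chromatin gave 1 CHD4 ChIP library and 1 input library. A peak is a stretch that the authors' peak caller marked as holding more ChIP reads than its background. With 1 library of each kind there was no spread between replicates and no test was possible, and every interval given here is a 95% interval for counting error only, since neither genes nor peaks are replicates of the experiment. The copy number of these genes in 501Mel and their expression were not analysed here.

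CHD4 is the ATP-dependent remodelling subunit of the NuRD complex, which slides nucleosomes and carries histone deacetylases. NuRD is found at promoters, at enhancers and within gene bodies, and in melanocytic cells it has been linked to the lineage factors MITF and SOX10. Very long genes consist almost wholly of introns, and many of them encode proteins of the neuronal synapse, adhesion proteins, ion channels and large scaffold proteins. Several coincide with common fragile sites, which are stretches that replicate late and break under replication stress.

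The peaks of the very long genes lay for the most part deep in introns, and the sequences that follow show the kinds of site from which the counts below were made. Each is the window of 101 bases about the centre of a peak, read from the GRCh37 plus strand. Among the strongest peaks were one in SMYD3, a lysine methyltransferase gene of the minus strand (intron 8 of the canonical transcript), and one in LRMDA, a gene of melanocyte differentiation (intron 6). Their fold enrichments were 5.86 and 5.45, and neither touched an exon. A peak in CDH4, between them in strength at 5.68, is not printed. It lay within 1000 bp of an annotated start and touched an annotated exon. The SMYD3 and LRMDA windows held no match to the motifs searched, and they are printed without capitals.
SMYD3, chr1:246039295-246039395: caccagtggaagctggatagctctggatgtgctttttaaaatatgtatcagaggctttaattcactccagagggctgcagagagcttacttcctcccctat
LRMDA, chr10:78269696-78269796: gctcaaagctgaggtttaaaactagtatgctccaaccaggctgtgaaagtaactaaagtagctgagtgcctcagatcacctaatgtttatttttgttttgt

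The next windows belong to strong peaks of the very long genes. In each peak the letters TCATGTG, the M-box to which MITF binds, stood within 50 bases of the centre. These windows are examples and not a ranking of all peaks with an M-box. The M-box is in capitals. ATRNL1 encodes an attractin-like membrane protein (intron 27), RUNX1 a transcription factor of blood development (intron 5), TENM3 a teneurin (intron 1) and PCDH9 a protocadherin (intron 2).
ATRNL1, chr10:117549586-117549686: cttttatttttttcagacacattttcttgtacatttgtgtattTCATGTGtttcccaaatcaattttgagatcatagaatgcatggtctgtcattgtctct
RUNX1, chr21:36236096-36236196: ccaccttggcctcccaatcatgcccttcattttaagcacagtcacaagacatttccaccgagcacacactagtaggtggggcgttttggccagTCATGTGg
TENM3, chr4:183182905-183183005: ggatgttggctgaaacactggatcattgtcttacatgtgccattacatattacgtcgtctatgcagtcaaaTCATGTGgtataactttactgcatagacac
PCDH9, chr13:67636473-67636573: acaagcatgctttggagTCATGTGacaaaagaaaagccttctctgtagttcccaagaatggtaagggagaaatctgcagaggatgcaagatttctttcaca

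A match to the CTCF consensus, in capitals, is shown for peaks in NBEA, which encodes neurobeachin (intron 49), and in NEGR1, which encodes an immunoglobulin-domain adhesion protein (intron 1).
NBEA, chr13:36204969-36205069: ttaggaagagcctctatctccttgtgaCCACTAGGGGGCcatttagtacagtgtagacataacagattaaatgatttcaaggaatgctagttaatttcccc
NEGR1, chr1:72503576-72503676: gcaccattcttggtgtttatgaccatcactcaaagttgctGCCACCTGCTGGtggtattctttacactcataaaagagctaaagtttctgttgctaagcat

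The last pair shows peaks at gene starts, in PDE10A, which encodes a cyclic nucleotide phosphodiesterase, and in ADGRV1, which encodes a very large adhesion GPCR. Both starts lie upstream of the canonical transcript.
PDE10A, chr6:166401726-166401826: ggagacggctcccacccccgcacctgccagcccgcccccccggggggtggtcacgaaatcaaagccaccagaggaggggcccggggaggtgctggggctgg
ADGRV1, chr5:89825936-89826036: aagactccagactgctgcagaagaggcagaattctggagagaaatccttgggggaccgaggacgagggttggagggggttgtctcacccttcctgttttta

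The very long genes carried CHD4 peaks at a low density. They held 3.66% of the peaks (95% interval 3.51 to 3.81) in 7.12% of the sequenced bases of chromosomes 1 to 22. Pooled over the 199 genes there were 11.4 peaks per Mb (10.9 to 11.8), against 22.1 over chromosomes 1 to 22 as a whole, a ratio of 0.514. At least 1 peak overlapped 177 of the 199 genes, or 88.9% (83.8 to 92.6), where the background over all protein-coding genes was 52.3%. A longer gene has more room for a peak, so peak content was compared by density per Mb below, except where a share of genes is given. By density, 45 of the very long genes, or 22.6% (17.4 to 28.9), exceeded the level of chromosomes 1 to 22, against a background of 40.9%. No peak overlapped the other 22, while 47.7% of all protein-coding genes had none.

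Density varied widely from gene to gene. The median was 7.77 peaks per Mb (5.38 to 9.81), with quartiles at 2.498 and 19.7 and 10% of the genes above 31.1. The mean was 12.4 with an SD of 13.8. The variance of the peak counts was 14.8 times that of Poisson counts at 1 common density. Clustering of peaks within a gene also raises this figure, so it does not measure differences between genes alone. Between them, 33 genes held 50% of the gene and peak pairs, and the 38 genes with 20 or more peaks held 55.4%. In contrast, 48 genes had 1 to 3 peaks.

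**Figure D1:**
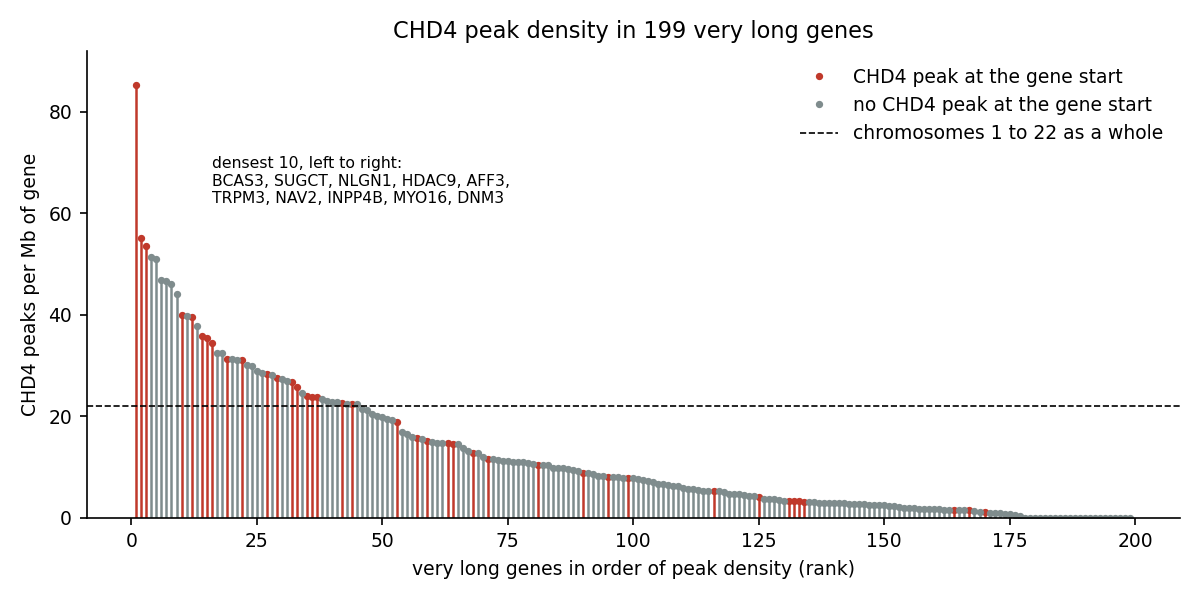
CHD4 peaks per Mb of gene (vertical axis) in each of the 199 very long genes, ordered from densest to sparsest (horizontal axis, rank), with a dot and line for each gene in red where a peak lay at the gene start. The dashed line is the 22.1 peaks per Mb of chromosomes 1 to 22, which 45 genes exceed, and the 22 genes at the right end are at 0.

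The 10 densest genes were a mixed group in function. BCAS3 (ENSG00000141376, chr17:58754814-59470199), which encodes a protein of cell migration first found in breast cancer, had 61 peaks, or 85.3 per Mb (65.2 to 110). The next was SUGCT (chr7:40174604-40900362), a mitochondrial CoA-transferase of glutarate metabolism, with 40 peaks, or 55.1 per Mb (39.4 to 75.1). NLGN1 (chr3:173114074-174012162), the postsynaptic adhesion protein neuroligin-1, had 48 peaks, or 53.4 per Mb (39.4 to 70.9). The intervals of SUGCT and NLGN1 overlapped almost fully, and that of BCAS3 reached down into both.

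HDAC9 (chr7:18126572-19042039), a class IIa histone deacetylase, carried 47 peaks, or 51.3 per Mb. AFF3 (chr2:100161881-100808890), a nuclear protein of the AF4 family of elongation factors, carried 33, or 51.0 per Mb. TRPM3 (chr9:73143976-74061820), a calcium-permeable cation channel, carried 43, or 46.8 per Mb. These genes stood at more than 2 times the level of chromosomes 1 to 22. NAV2, a cytoskeletal regulator of axon growth, followed at 46.7 per Mb (36 peaks), INPP4B, a phosphoinositide phosphatase, at 46.1 (38 peaks), MYO16, an unconventional myosin, at 44.1 (27 peaks), and DNM3, a dynamin of membrane fission, at 39.96 (24 peaks). Neighbours in this order from SUGCT to DNM3 did not differ beyond counting error, since their intervals overlapped.

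The regions around these genes were not uniformly dense. In the 500 kb on either side, the density was 54 peaks per Mb about BCAS3, 73 about HDAC9 and 48 about AFF3. It was 10 about INPP4B, 14 about NLGN1, 17 about NAV2 and 21 about SUGCT. By these values alone, HDAC9 lay in surroundings denser than itself, whereas the other genes named here, AFF3 aside, were denser than the sequence beside them. No interval was set on the density beside a gene, so counting error on that side is left out. AFF3, at 51.0 peaks per Mb (35.1 to 71.6), was close to the 48 beside it.

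Several of the genes without a peak have neuronal roles, as has the dense gene NLGN1. Such roles were not counted over all very long genes. The longest 10 of the 22 were AUTS2, a regulator of neuronal development (chr7:69063282-70258492), WWOX, an oxidoreductase at a fragile site (chr16:78133297-79246564), PARD3B, a polarity protein (chr2:205410198-206484886), NKAIN2, a membrane protein that interacts with the sodium pump (chr6:124125010-125146786), the metabotropic glutamate receptor gene GRM7, the contactin gene CNTN4, the calcium channel subunit gene CACNA2D3, THSD7B, the contactin-associated protein gene CNTNAP5 and the cell adhesion gene DSCAM. A count of 0 over AUTS2 allowed a density of up to 2.51 peaks per Mb, taking 3 counts as the limit, and over DSCAM up to 3.59. These limits fall below the density of chromosomes 1 to 22 in each of the 10 genes. That followed from the choice, since 3 counts over any gene longer than 600 kb give a limit below that density. The limit also takes peaks as independent, although peaks came in clusters. AUTS2 and KHDRBS2, an RNA-binding protein gene, were the 2 genes with no peak in the gene or in the 500 kb on either side. For the 22 genes without a peak the median density beside the gene was 8 peaks per Mb, and it ranged from 0 to 44, the highest value being beside HS6ST3, a heparan sulfate sulfotransferase gene. NKAIN2 had 26 peaks per Mb beside it and PARD3B had 23, so that an empty gene could lie in well-occupied surroundings.

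The 5 longest genes were all sparse. RBFOX1, a splicing regulator of neurons and muscle (2473540 bp, chr16:5289803-7763342), had 1 peak, or 0.40 per Mb (0.010 to 2.25). CNTNAP2, a contactin-associated axonal protein, had 4 peaks, or 1.74 per Mb. PTPRD, a receptor tyrosine phosphatase of synapse formation, had 6, or 2.61 per Mb, DLG2, a postsynaptic scaffold protein, had 7, or 3.22 per Mb, and CSMD1, a complement regulator, had 4, or 1.94 per Mb. By contrast MACROD2, a mono-ADP-ribosyl hydrolase gene of nearly the same length as CSMD1, had 39 peaks, or 19.0 per Mb (13.5 to 25.9).

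Pooled over genes, CHD4 density was lower in longer genes. Pooled densities were 38.3 peaks per Mb in genes under 50 kb, 31.1 at 50 to 100 kb, 29.5 at 100 to 200 kb, 26.3 at 200 to 300 kb and 22.9 at 300 to 600 kb, before the 11.4 of the very long genes. Transcription starts take up more of a short gene. When peaks and bases within 5000 bp of any annotated start were left out, the densities were 20.3, 24.7, 25.7, 22.6, 20.8 and 10.2 in the same order. Away from starts the classes below 600 kb thus lay within 20.3 and 25.7 peaks per Mb, and the very long genes were the class that stood apart. Their density was 0.496 of that of genes of 300 to 600 kb over the whole gene and 0.491 away from starts. For peaks whose −log10 q was not below 2 these ratios were 0.489 and 0.4995, and for those not below 5 they were 0.459 and 0.620. Medians over single genes gave another order, because many short genes have no peak. They were 0 peaks per Mb under 50 kb, 18.6 at 50 to 100 kb, 18.5 at 100 to 200 kb, 17.8 at 200 to 300 kb, 13.2 at 300 to 600 kb and 7.77 in the very long genes, and 7.96 over all protein-coding genes.

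**Figure D2:**
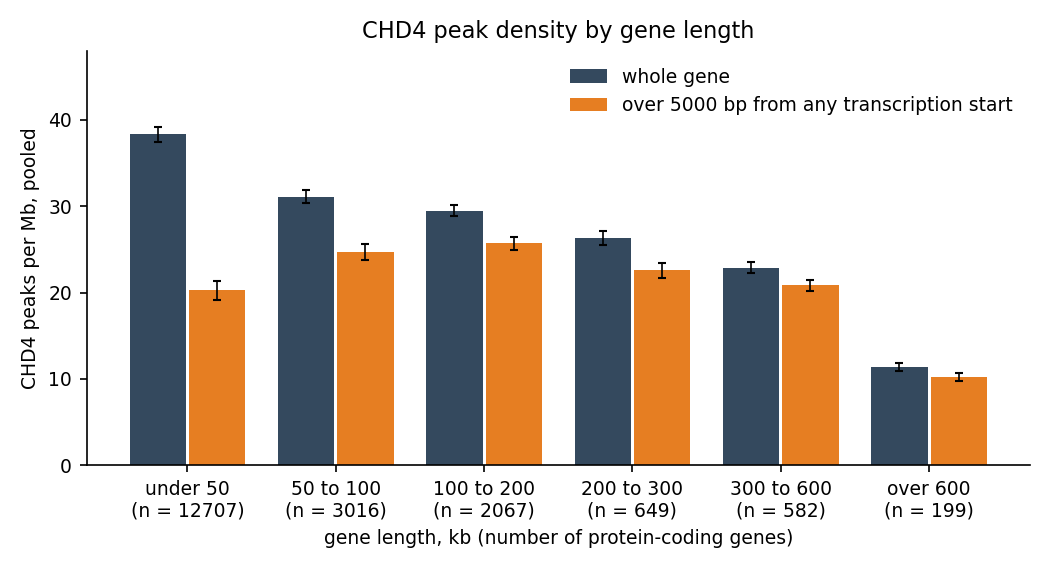
CHD4 peaks per Mb (vertical axis) pooled over protein-coding genes of 6 length classes (horizontal axis, kb, with the number of genes). Dark bars are whole genes, orange bars leave out bases within 5000 bp of any start, and lines are 95% Poisson intervals. The class over 600 kb lies at 11.4 and 10.2, the lowest of each colour.

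Among the very long genes themselves, pooled density fell only above 1000 kb. The intervals given here are for counting and leave out the spread between genes. The 83 genes of 600 to 800 kb had a pooled density of 13.8 peaks per Mb and the 54 genes of 800 to 1000 kb one of 14.0, which were alike within their intervals (12.8 to 14.8 and 13.0 to 15.1). The 47 genes of 1000 to 1500 kb stood at 9.68 (8.89 to 10.5). The 15 genes over 1500 kb stood at 5.39 (4.58 to 6.31), and each of them had at least 1 peak. Across single genes, however, density was only weakly ordered by length, with a Spearman rho of -0.11 and a Pearson r of -0.17 over the 199 genes, which share 1 library. At the threshold itself the values were mixed. DNM3 (600580 bp) and the stress-kinase gene MAPK10 (604619 bp), just inside, had 39.96 and 11.6 peaks per Mb. The transcription factor gene NFIA (597530 bp) and the sorting nexin gene SNX29 (597554 bp), just outside, had 97.1 and 38.5.

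The very long genes were sparser than other protein-coding genes within each G+C band compared. Their bases were 38.6% G+C, against 41.0% over chromosomes 1 to 22. Windows of 100 kb that lay wholly in very long genes were compared with windows in other protein-coding genes and in sequence free of protein-coding genes, within bands of G+C. From 30 to 36% G+C the densities were 8.44 peaks per Mb in very long genes, 16.2 in other coding genes and 5.98 outside coding genes. From 42 to 46% they were 13.9, 30.6 and 16.9. The intervals in this comparison are for counting and leave out the spread between genes. In each of the 5 bands between 30 and 46% the very long genes were below other coding genes, and their intervals did not meet. Above 38% they were also below sequence free of coding genes, although between 38 and 40% these intervals overlapped (9.76 to 12.1 and 11.6 to 12.7). In the 2 lowest bands they were above it. Over all windows, including those outside these bands, 10.996 peaks per Mb in very long genes stood next to 11.1 outside coding genes. Of these windows 65.1% were empty in very long genes, against 63.9% outside coding genes and 38.6% in other coding genes. Gene by gene, density and G+C had a Spearman rho of -0.06 and a Pearson r of -0.02 over the very long genes, and in genes of 300 to 600 kb the rho was 0.096 (582 genes).

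**Figure D3:**
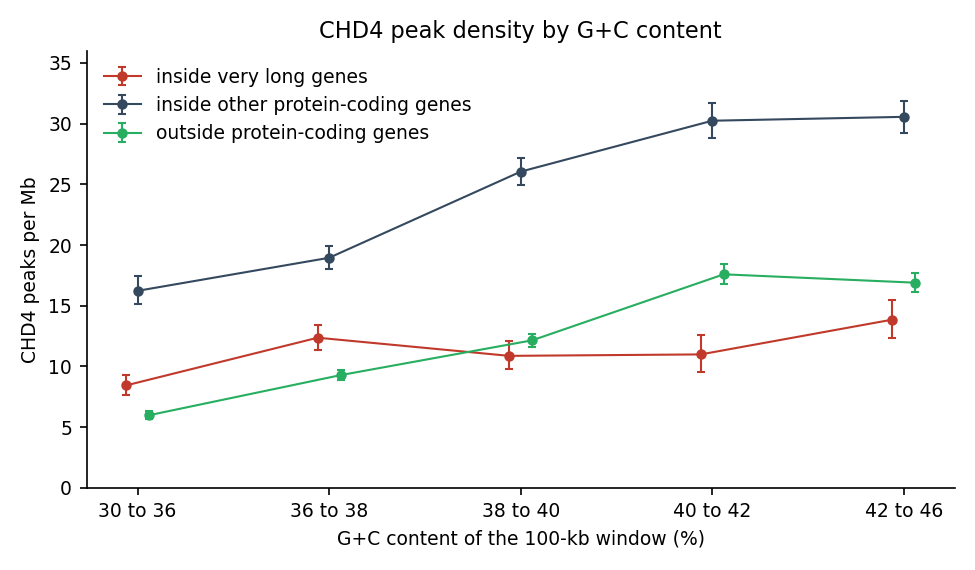
CHD4 peaks per Mb (vertical axis) in 100-kb windows by their G+C content (horizontal axis, %), with 95% Poisson intervals. Windows inside very long genes (red) go from 8.44 to 13.9, windows inside other protein-coding genes (dark blue) from 16.2 to 30.6, and windows outside protein-coding genes (green) from 5.98 to 16.9.

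The sequence next to the very long genes was denser than the genes. The median density of the 500 kb on either side was 14 peaks per Mb (12 to 17). The median ratio of gene to surroundings was 0.602 (0.465 to 0.757) over the 194 genes that had a peak beside them, and 64 genes, or 32.2%, were denser than their surroundings. In genes of 300 to 600 kb the same median ratio was 0.808 (0.706 to 0.916). Density in the gene and beside it had a Spearman rho of 0.36 and a Pearson r of 0.40 over the 199 genes. The density of the whole chromosome was less closely related to that of the genes on it, with a rho of 0.08 and an r of 0.15. The chromosomes that carry these genes differed in density from 9.84 peaks per Mb (chromosome 18) to 39.2 (chromosome 22), and 40 of the very long genes, or 20.1% (15.1 to 26.2), were denser than the chromosome that carries them, against a background of 40.4% over all protein-coding genes and 40.2% (36.3 to 44.2) in genes of 300 to 600 kb. Both genes on chromosome 18, DLGAP1, a postsynaptic scaffold protein, and PTPRM, an adhesive receptor phosphatase, were among them, with a pooled 28.3 peaks per Mb.

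Some genes stood well above the sequence beside them. ZFHX3, a homeobox and zinc finger transcription factor gene, had 37.9 peaks per Mb and 3 beside it. SGCD, which encodes delta-sarcoglycan, had 31.2 and 5.26 beside it, and GRIK2, a kainate receptor gene, had 22.3 and 3 beside it. These 3 genes were picked out after their values had been seen.

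A CHD4 peak at the start of the gene was uncommon. A peak overlapped the 1000 bp on either side of the 5′ end in 39 genes, or 19.6% (14.7 to 25.7), against a background of 35% over all protein-coding genes and 24.9% (21.6 to 28.6) in genes of 300 to 600 kb. The genes whose start was occupied also held more peaks elsewhere. Away from all starts, the median was 17.3 peaks per Mb (8.87 to 25.9) in these 39 genes and 5.82 (3.71 to 7.47) in the other 160. The pooled values were 17.8 and 8.64. In genes of 300 to 600 kb the corresponding medians were 28.5 and 8.55. Both sets of very long genes had nearly the same median G+C content, 37.9% with a peak at the start and 38.1% without, and a median of 15 and 12 annotated transcripts. Whether the expression of the genes moves with this difference was not tested.

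Relative to its size, the start was nevertheless the densest place of the gene. Within 1 kb of the 5′ end, inside or before the gene, there were 90.5 peaks per Mb (63.4 to 125), from 36 peak centres. From 1 to 10 kb into the gene the density was 16.2 (10.8 to 23.3), and it was 13.0 from 10 to 50 kb, 12.0 from 50 to 100 kb, 10.5 from 100 to 200 kb and 9.85 (8.52 to 11.3) from 200 to 300 kb. From 300 to 600 kb it was 12.4. Before the gene the density was 17.9 from 1 to 10 kb, 13.8 from 10 to 50 kb and 19.1 from 50 to 100 kb. At the other end, the last 1 kb and the first 1 kb after the gene had 17.6 peaks per Mb (7.07 to 36.2), from 7 peaks.

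Seen against all starts, 7.97% (6.91 to 9.19) of the peaks in very long genes lay within 1000 bp of an annotated start, where 2.98% of the bases lay. Of all other peaks on chromosomes 1 to 22, 23.8% (23.5 to 24.2) did, where 8.03% of the other bases lay. The share of peaks was thus 2.68 times the share of bases in very long genes and 2.97 times elsewhere. Only 27 peaks that overlapped a very long gene were at its own 5′ end, 1.24% of the peaks in 0.10% of the bases. A further 95 peaks, or 4.38%, were at an internal start of the same gene, in 1.41% of the bases, and 51, or 2.35%, were at the start of another gene alone, in 1.46% of the bases. The remaining 1997 peaks, or 92.03% (90.8 to 93.1), were near no annotated start. Exons were touched by 9.59% of peaks in very long genes, where they make up 2.03% of the bases, and by 21.6% of other peaks, where they make up 5.85%. An overlap of 1 bp was enough for these counts, and the median peak of very long genes was 619 bp long. Peak length alone thus raises a share of peaks above a share of bases, at starts and most of all at exons. A preference for exons was not tested.

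Along the gene, pooled peaks were spread with shallow departures from evenness. Peak centres were placed in 10 equal parts in the direction of transcription, and an even spread puts 10% in each. The first part held 11.5% (10.3 to 12.9), the part numbered 3 held 7.86% (6.81 to 9.05) and part 4 held 7.54% (6.52 to 8.72). Parts 8, 9 and 10 held 11.5%, 12.7% (11.3 to 14.1) and 11.4%. In genes of 300 to 600 kb the first part held 12.1% and part 10 held 8.14% (7.45 to 8.90), so that in this class the last part was the lowest. Without the peaks within 5000 bp of a start, the first part of the very long genes held 9.58% and part 9 held 13.1%. When each gene with a peak counted equally, the first part held 13.9%, parts 3 and 4 held 7.42% and 7.58%, and the lowest was part 6 with 6.93%.

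**Figure D4:**
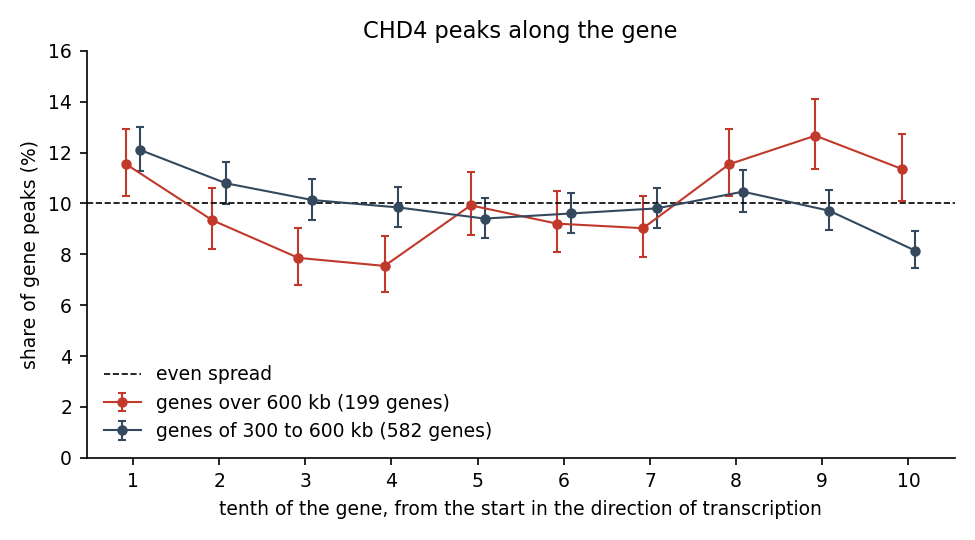
Share of gene peaks (vertical axis, %) in each of 10 equal parts of the gene (horizontal axis, from the start in the direction of transcription), with 95% Wilson intervals. Very long genes (red) go from 11.5% in the first part to 7.54% in part 4 and 12.7% in part 9, while genes of 300 to 600 kb (dark blue) end at 8.14%, and the dashed line is an even spread.

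Peaks within a gene came in clusters separated by empty stretches. Of 2050 pairs of neighbouring peaks in the same gene, 47.2% (45.0 to 49.3) had centres within 10 kb of each other, where 23.01% would be so if the peaks of each gene were spread evenly at random. The longest stretch without a peak centre had a median of 490 kb and ranged from 69.4 kb in BCAS3 to 2097 kb in RBFOX1. It exceeded 50% of the gene in 105 genes, of which 37 had no peak or 1, so that a long stretch was unavoidable there. Among the 86 genes with 10 or more peaks it exceeded 50% of the gene in 10. A stretch of over 1 Mb was found in 17 genes, 4 of them without a peak and 4 with 1.

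The longest empty stretches lay in sparse genes. In RBFOX1 the single peak was 376 kb after the start, and the 2097246 bp after it were empty. PTPRD had no peak centre in its first 1765053 bp, and its 6 peaks lay between 1765 and 1880 kb after the start. DPP10, a peptidase-like partner of potassium channels, was empty for 1364735 bp, and PCDH15, a protocadherin of hair cells, for 1343101 bp, each up to a single peak. In LRRC4C, a synaptic leucine-rich repeat protein gene, the only peak lay 38.1 kb after the start, and 1307423 bp followed without one. In CNTNAP2 the 4 peaks lay between 1081 and 1183 kb. In CSMD1 they formed pairs near 887 and 890 kb and at 1812 and 1847 kb.

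Dense genes also held long empty stretches. The first 640081 bp of ZFHX3 were without a peak centre, and its 42 peaks followed. KAZN, which encodes the cytoskeletal protein kazrin, had 22 peaks between 73.6 and 257 kb, then 760573 bp without one, and 15 more after that. In BCAS3 and NLGN1, by contrast, no stretch was longer than 69379 and 98005 bp. KAZN was picked out after its values had been seen.

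**Figure D5:**
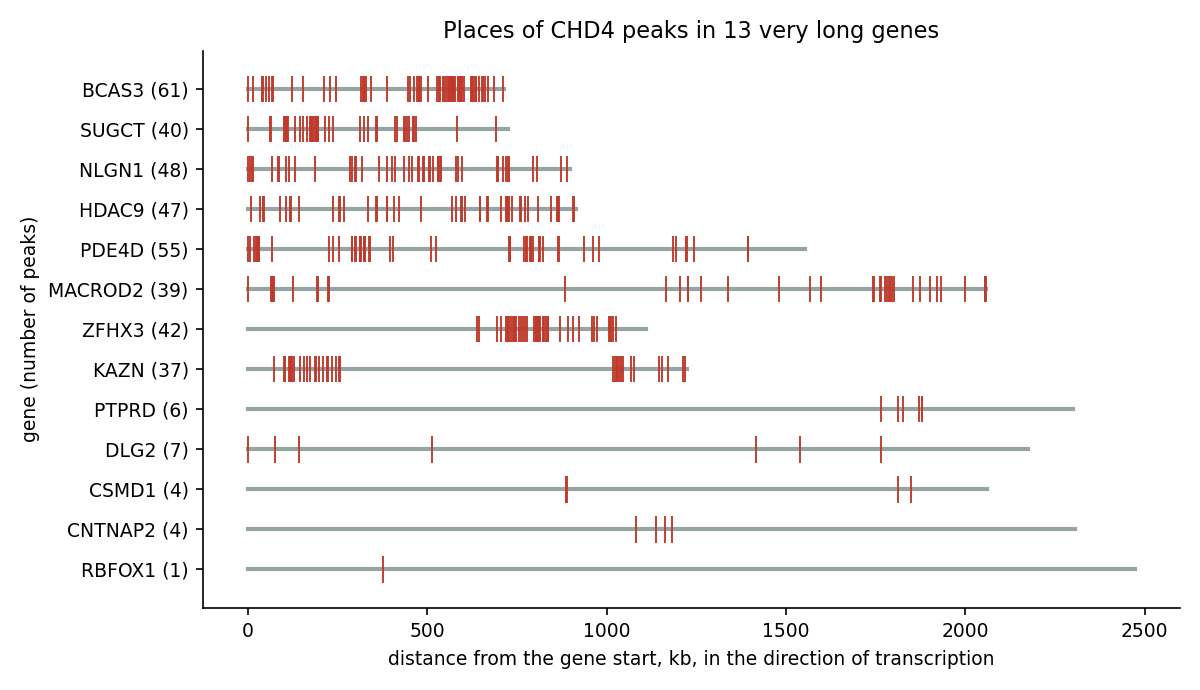
Places of CHD4 peak centres (red marks) along 13 very long genes drawn to scale (grey lines; horizontal axis, kb from the gene start in the direction of transcription), with the number of peaks after each symbol. BCAS3, NLGN1 and HDAC9 are marked throughout, ZFHX3 is empty over its first 640 kb, KAZN is marked at both ends, and RBFOX1 carries 1 mark.

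The gene records join alternative starts, which can lie far apart. In 57 genes at least 100 kb of the record lay outside the canonical transcript. There the pooled density was 14.99 peaks per Mb (13.6 to 16.5) inside the canonical transcript and 12.1 (10.8 to 13.5) outside. The inside was denser in 32 of these genes, the outside in 23, and 2 were equal. In RUNX1 the canonical transcript held 2 peaks, or 7.65 per Mb, and the sequence upstream of it 28, or 29.3 per Mb. In PDE4D, a cAMP phosphodiesterase, the values were 28.1 inside and 44.6 outside. In ZFHX3 they were 45.2 inside and 35.6 outside. Between them, 4 of the genes overlapped another very long gene and shared its peaks, namely RBMS3 with ENSG00000283563 and FOXP1 with ENSG00000285708.

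The genes were also grouped by function. The lists were drawn from general knowledge with earlier results of these data known, and 135 of the genes are in at least 1 of the 13 lists. The reference for each list is all very long genes, with a median of 7.77 peaks per Mb. Of these genes 88.9% had a peak and 22.6% exceeded the density of chromosomes 1 to 22. Over all protein-coding genes the shares were 52.3% and 40.9%. Of 7 neurexin, neuroligin and contactin genes, 5 had a peak and 1 exceeded the density of chromosomes 1 to 22. Their median was 2.36 peaks per Mb, and they ran from 0 in CNTN4 to 53.4 in NLGN1. NRXN3, which encodes a presynaptic partner of neuroligins, had 2.36.

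Among 10 cadherin, protocadherin and catenin genes, all had a peak and none exceeded the density of chromosomes 1 to 22. Their median was 3.30 peaks per Mb, between 0.55 in PCDH15 and 15.98 in CDH4. The 10 immunoglobulin and leucine-rich repeat adhesion genes had a median of 5.79, from 0 in DSCAM to 28.4 in LSAMP, which encodes a limbic adhesion protein. Of the 5 glutamate and GABA receptor genes 3 had a peak, with a median of 1.99, from 0 in GRID1, a delta-type receptor, to 22.3 in GRIK2. The 5 receptor tyrosine phosphatase genes each had a peak, and their median of 2.72 lay between 0.90 in PTPRT and 28.6 in PTPRM. None of these lists had more than 1 gene above the density of chromosomes 1 to 22. Over all very long genes 88.9% had a peak. Above that density were 22.6% of them, so that 1 gene of 5 is no departure from that share.

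The 11 calcium and sodium channel genes and their partners had a median of 2.75 peaks per Mb, with 8 of 11 occupied and a range from 0 in CACNA2D3 to 46.8 in TRPM3. The 14 scaffold and polarity genes had a median of 6.08, from 0 in PARD3B to 28.1 in DLGAP1, and the 13 genes of very large extracellular proteins one of 6.59, from 0 in CSMD2 to 28.8 in TENM3. For the 7 glypican, glycosyltransferase and sulfotransferase genes it was 7.46, with 6 of 7 occupied and HS6ST3 at 0, and none exceeded the density of chromosomes 1 to 22. The 27 genes at common fragile sites had a median of 7.88, with 24 occupied and 3 above that density, from 0 in AUTS2 and WWOX to 34.4 in IMMP2L, a mitochondrial inner membrane peptidase. FHIT, the diadenosine triphosphatase gene of the best known fragile site, had 3.32. Of all very long genes 88.9% were occupied and 22.6% were above the density of chromosomes 1 to 22.

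The highest medians were those of the signalling genes and the regulators. Over all very long genes 88.9% had a peak and 22.6% exceeded the density of chromosomes 1 to 22. The 13 cyclic nucleotide, lipid and kinase signalling genes all had a peak, and 5 exceeded the density of chromosomes 1 to 22. Their median was 14.5 peaks per Mb, from 1.48 in the phosphodiesterase gene PDE1C to 35.4 in PDE4D. The 17 transcription and RNA regulator genes also had a median of 14.5, with 6 above that density, from 0 in AUTS2 to 51.3 in HDAC9. FOXP1, a forkhead factor gene, had 23.8 and the retinoic acid receptor gene RARB 9.89. The 21 genes of vesicle transport, DNA repair and metabolism had a median of 9.83, from 0 in WWOX to 85.3 in BCAS3, and 10 of the 21 had a peak at the start, where 39 of all 199 very long genes (19.6%) and 35% of all protein-coding genes did. RAD51B, a recombination repair gene, had 27.5.

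Single peaks of very long genes had nearly the same median strength and length as other peaks, with fewer of them at the strongest q values. Their median fold enrichment was 3.07 (3.05 to 3.09), against 3.09 (3.08 to 3.09) for all other peaks on chromosomes 1 to 22, and away from starts it was 3.07 and 3.06. Median lengths were 619 and 614 bp. A −log10 q of 2 or more was reached by 45.0% (42.9 to 47.1) and 48.6% (48.2 to 49.0), and one of 5 or more by 1.43% (1.01 to 2.02) and 2.26% (2.14 to 2.38). Broad regions of at least 3000 bp made up 4.84% (4.01 to 5.82) and 4.24% (4.08 to 4.41). The 500 bp about the peak centres had a median G+C of 39.3% in very long genes and 43.7% elsewhere, and away from starts of 38.9% and 41.7%.

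Of the strongest peaks, 31 whose −log10 q was 5 or more were in 29 of the very long genes, or 14.6%. The background was 3.84% of protein-coding genes, and the share was 13.2% (10.7 to 16.2) in genes of 300 to 600 kb. These shares rise with gene length, since a longer gene has more room for such a peak. Per Mb, these peaks were sparser in very long genes, at 0.162 against 0.354 in genes of 300 to 600 kb, a ratio of 0.459. The peaks of highest fold enrichment were in SMYD3 at 5.86, in CDH4, which encodes R-cadherin, at 5.68 and in LRMDA at 5.45. They were followed by ULK4, an ULK-family pseudokinase gene, at 5.19 and PDE4D at 5.13. The SMYD3 peak was stronger than 99.9% of all peaks on chromosomes 1 to 22 and lay 631 kb after the gene start. In the sparse gene PTPRD, the peak 1872 kb after the start reached 4.92.

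Motif shares relative to flanking sequence had overlapping intervals in the peaks of very long genes and in other peaks. Letters were searched on both strands within 250 bp of the peak centre and in flanks centred 5000 bp to either side. The M-box TCATGTG was in 12.7% (11.4 to 14.2) of the peaks and 7.79% of the flanks, a ratio of 1.63 (1.41 to 1.90). In other peaks the values were 10.9% and 7.23%, a ratio of 1.51 (1.46 to 1.56). The reversed letters GTGTACT, which keep the base composition, had ratios of 1.29 (0.995 to 1.66) and 1.14 (1.08 to 1.2024). In very long genes the intervals of the M-box and its reversed letters overlapped, so a difference between them was not resolved there. In other peaks these intervals did not meet. Of 621 M-box matches within 600 bp of a centre in very long genes, 20.9% (17.9 to 24.3) lay within 100 bp of it, where an even spread puts 16.7%, and 12.9% (10.5 to 15.7) lay from 500 to 600 bp away.

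The AP-1 motif TGANTCA was in 20.05% (18.4 to 21.8) of the peaks and 15.8% of the flanks, a ratio of 1.27 (1.14 to 1.41), and the ratio in other peaks was 1.23 (1.204 to 1.259). Its reversed letters ACTNAGT gave 1.05 (0.920 to 1.201) in very long genes, an interval that overlapped that of the motif there. The CTCF consensus was in 14 peaks, or 0.645% (0.385 to 1.08), and in 0.115% of the flanks, a ratio of 5.60 (2.02 to 15.5). In other peaks 1.53% (1.43 to 1.63) held it, with a ratio of 6.07. The share with a CTCF match was thus lower in very long genes than elsewhere, at a similar ratio to the flanks. The SOX core CTTTGT was in 40.9% of the peaks, with a ratio of 1.08 (1.02 to 1.15), and in other peaks the ratio was 1.13. CG dinucleotides numbered 0.825 per 100 bp in the peaks of very long genes and 1.53 in other peaks, and away from starts 0.724 and 0.965. Their flanks had 0.803 and 1.28, and away from starts 0.761 and 1.04. The flanks thus differed between the 2 sets as well, and away from starts the peaks lay slightly below their flanks. A match describes letters in a window and does not show that a factor was bound there.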

How the data were processed

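ChIP-seq was performed on 501Mel cells with 1 CHD4 ChIP library and 1 input library. Per the submitters' processing notes, reads were handled with bcl2fastq 2.17.1.14, mapped to hg19 with Bowtie 1.0.0 and called into peaks with MACS2 2.1.1.20160309. The authors used single reads of 50 bases, discarded those without a unique best match, and ran the caller in its mode for broad regions. Their reporting summary names a q value cutoff equal to a −log10 q of 2. In the list, 45.0% of the peaks in very long genes and 48.6% of other peaks reached it. That the input served as control is not given in the sources used here, and this was assumed. The deposited list gives a score (the −log10 q times 10, without its decimals), the authors' fold enrichment over the background (a ratio), and the −log10 of the p and q values for each region. It carries no read counts for its regions, and the read totals in the authors' reporting summary did not enter the precision. The fold enrichment and the −log10 q were used to describe and filter peaks, and the score and −log10 p entered no result.

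Positions were read as GRCh37 and counted from 1, with GENCODE release 44 mapped to that build. An overlap of 1 bp counted as a peak in a gene. A gene start was the 5′ end of the gene record, with 1000 bp on either side. Intervals are Wilson (shares), exact Poisson (densities) and order-statistic (medians), at 95%. Those over peaks treat peaks as independent, and they are too narrow where peaks cluster. No test between groups was made, since there was 1 library of each kind. The input library has no peaks of its own in the list, so no background level was measured in it.

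The genes, the functional lists and the genes named were chosen with earlier results of these data known. Named were the 10 genes of highest and the 10 of lowest density (ties by length), the 5 longest, those with the 5 strongest peaks and the 5 longest stretches without a peak, 2 on each side of the length threshold, and the extremes of each list. Some items that this rule names are not reported here. Other genes were added after their values were seen, for their place along the gene, their surroundings or their family. Counting was tested on simulated peaks. Stricter thresholds, joined peaks, other gene lengths, flanks and start widths were tried as alternatives. The tools were samtools 1.23.1, pysam 0.24.0, pandas 2.3.3, matplotlib 3.10.9, scipy 1.17.1 and numpy 2.4.6 under Python 3.11.15.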

Additional observations from a re-analysis of the deposited data

How the results depend on the processing

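Of 51 alternatives, 27 left the value within its interval or, for a count, within 1.5 times, and 24 moved it. A stricter peak threshold keeps fewer peaks by construction. At a −log10 q of 2 or more the pooled density was 5.11 peaks per Mb, the median 3.27, the density away from starts 4.61, the number of genes with a peak at the start 20 and the median fold enrichment 3.43. At 5 or more, 29 genes had a peak and 1 had one at the start, the pooled density was 0.162 and that away from starts 0.156, the first of 10 parts held 3.13% of peaks, 9.68% lay within 1000 bp of a start and the AP-1 ratio was 1.75 (0.699 to 4.38). Joining peaks within 1000 bp gave 9.98 peaks per Mb and 8.96 away from starts. Genes over 500 kb had a pooled density of 13.0 and 11.6 away from starts, those over 800 kb 10.3 and 9.25, and those over 1000 kb 8.24 and 7.68 with a median of 5.34. The first of 10 parts held 9.58% without peaks near starts and 13.9% as a mean of the shares of single genes. Within 5000 bp of a start lay 21.6% of peaks. The ratio to the surroundings stayed between 0.496 and 0.698 under every alternative tried for it.

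No paired analysis was possible because the ChIP and the input have a single library apiece, and no replicate was there to leave out. The list holds no read counts, and CHD4 below its threshold was not detectable in it. How much of each gene can take up reads that map to a single place was not analysed here.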

Other observations

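Long genes outside the choice were read in the same way. The 9 genes left out by symbol had a pooled density of 22.2 peaks per Mb (19.3 to 25.4), and none had a peak at the start. SOX6, a transcription factor gene with which SOX5 is paired in cartilage, held 66 peaks, or 85.4 per Mb, and SOX5 held 24, or 23.2 per Mb. The axon guidance genes ROBO1, ROBO2 and SLIT3 had 39.3, 28.7 and 28.2 peaks per Mb, whereas DCC, the netrin receptor gene, had 0.84, the ephrin receptor gene EPHA6 1.06 and the potassium channel interactor gene KCNIP4 4.10. No peak overlapped KCNMA1, which encodes a calcium-activated potassium channel.

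On the X chromosome, 11 protein-coding genes were over 600 kb, with a pooled density of 3.78 peaks per Mb (2.75 to 5.07) where the chromosome had 4.94, and a median of 2.83. DMD, the dystrophin gene, had 17 peaks, or 7.58 per Mb, and IL1RAPL1, a synaptic receptor gene, had 11, or 8.03 per Mb. PCDH11X, IL1RAPL2 and TENM1 had none. The 69 lncRNA genes over 600 kb on chromosomes 1 to 22 had a pooled density of 15.2 peaks per Mb (14.1 to 16.2) and a median of 9.08, and 61 of them, or 88.4%, had a peak. MIR3681HG was the densest of them at 72.5, followed by HULC at 64.1. Their pooled density lay between that of the very long protein-coding genes and that of protein-coding genes of 300 to 600 kb. The counting intervals did not meet, but they leave out the spread between genes. Medians were 7.77 in the very long protein-coding genes and 13.2 in protein-coding genes of 300 to 600 kb.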
